A study of Mus musculus with 16 samples.

Results

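The 10 genes described here mark or build the inner lining of blood vessels: Kdr, Flt1, Tek and Tie1 encode receptors, Egfl7 a secreted protein, Cdh5, Pecam1 and Cldn5 proteins of cell junctions, and Emcn and Plvap surface glycoproteins. They were chosen by symbol from the 56748 genes listed in the deposited table, and all 10 were found and passed the filter on low values. RNA was measured in bulk in whole tissue of the trunk and of the caudal region of mouse embryos at E11.5. Embryos with the Ednrb+/+ genotype, labelled WT, were compared with Ednrb-/- embryos, which carry a targeted mutation of the endothelin B receptor gene. The study asked about the surroundings in which pigment spots form unevenly in mice without this receptor. Each of the 4 combinations of genotype and region was represented by 4 libraries labelled as biological replicates. The labels give neither strain, the altered part of Ednrb, the sex or pooling of the embryos, nor whether trunk and caudal samples came from the same embryos.

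Endothelial cells form vessels first by assembly of precursors and then by sprouting, both driven by vascular endothelial growth factor (VEGF) acting through Kdr. Flt1 binds the same ligands with high affinity and low signalling output, and works largely as a decoy that limits Kdr. Angiopoietins act through Tek, with Tie1 as its partner, during remodelling, while Cdh5 and Cldn5 seal the contacts between neighbouring cells.

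Proximal promoters were examined for a motif linked to endothelial genes, because transcription factors of the ETS family, which bind a GGAA core, act on many of them. RefSeq start sites on build GRCm38.p6 were matched for 7 of the 10 genes. Cdh5, Pecam1 and Plvap had no entry. The 250 bases before the start are shown for 4 genes that held the searched motif and for Cldn5, which held neither the motif nor its core, so that the presence of the letters can be set beside the expression values. They lie at chr5:147726012-147726261 on the minus strand (Flt1), chr3:137340828-137341077 on the plus strand (Emcn), chr2:26580833-26581082 on the plus strand (Egfl7, 1 of its 3 start windows), chr4:118489850-118490099 on the minus strand (Tie1) and chr16:18776597-18776846 on the plus strand (Cldn5). Each reads 5′ to 3′ on the gene's own strand, and capitals mark AGGAAG or its reverse complement CTTCCT.
Flt1: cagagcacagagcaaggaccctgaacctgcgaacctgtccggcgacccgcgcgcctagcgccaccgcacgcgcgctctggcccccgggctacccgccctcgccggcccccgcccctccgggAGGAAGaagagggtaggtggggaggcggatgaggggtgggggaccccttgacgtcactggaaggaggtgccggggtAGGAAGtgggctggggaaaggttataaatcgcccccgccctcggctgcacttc
Emcn: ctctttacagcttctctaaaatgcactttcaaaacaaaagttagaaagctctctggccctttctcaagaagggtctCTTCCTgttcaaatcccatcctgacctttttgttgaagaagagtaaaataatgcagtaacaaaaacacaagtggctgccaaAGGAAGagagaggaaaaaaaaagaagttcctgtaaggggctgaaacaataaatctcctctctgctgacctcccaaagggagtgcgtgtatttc
Egfl7: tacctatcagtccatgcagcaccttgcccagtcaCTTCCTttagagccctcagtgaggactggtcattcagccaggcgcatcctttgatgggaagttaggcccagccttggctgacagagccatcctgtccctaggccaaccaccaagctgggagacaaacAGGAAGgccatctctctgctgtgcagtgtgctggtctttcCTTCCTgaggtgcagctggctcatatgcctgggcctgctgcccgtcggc
Tie1: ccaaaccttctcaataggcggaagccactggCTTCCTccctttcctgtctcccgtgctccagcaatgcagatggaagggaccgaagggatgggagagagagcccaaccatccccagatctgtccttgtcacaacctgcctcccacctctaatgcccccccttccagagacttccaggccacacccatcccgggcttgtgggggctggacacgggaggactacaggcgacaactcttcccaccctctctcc
Cldn5: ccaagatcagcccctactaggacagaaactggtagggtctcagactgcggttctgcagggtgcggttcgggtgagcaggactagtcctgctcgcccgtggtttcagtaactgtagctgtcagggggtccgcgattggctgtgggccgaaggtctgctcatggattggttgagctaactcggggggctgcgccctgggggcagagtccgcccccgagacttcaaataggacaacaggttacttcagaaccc
AGGAAG, which contains the GGAA core, was present on either strand in 4 of the 7 genes (5 of 9 windows), and in 29.5% of all 32851 windows of the same length. GGAA alone was present in 6 of the 7 genes and in 93.4% of all windows, so it separates few promoters. Flt1 and Emcn held 2 copies of AGGAAG each, this Egfl7 window held 3 and Tie1 held 1. Kdr and Tek held none. A match of letters describes the window only.

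On mm39, the build of the deposited table, all 10 are annotated as protein-coding. Kdr lies at chr5:76093487-76139118 and Flt1 at chr5:147498414-147662821, both on the minus strand. Tek lies at chr4:94627526-94763213 on the plus strand and Tie1 at chr4:118328388-118347258 on the minus strand. Egfl7 is at chr2:26470026-26483132, Cdh5 at chr8:104828257-104871143, Cldn5 at chr16:18595597-18597012 and Emcn at chr3:137046828-137137946, all on the plus strand. Pecam1, at chr11:106545043-106641454, and Plvap, at chr8:71950409-71964396, are on the minus strand. The promoter coordinates above belong to the other build and are not mixed with these.

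Total reads assigned to listed genes ranged from 34883821 to 43444905 per library, and each of the 10 genes drew between 563 and 4553 reads in every library. Levels are given as FPKM, fragments scaled to transcript length and to a library total. The total implied by the FPKM values was 1.01 to 1.03 times the reads in listed genes in the WT libraries, 0.994 to 1.01 times in Ednrb-/- trunk and 0.949 to 0.997 times in Ednrb-/- caudal libraries. No label says what this total counts, and it moves with genotype in the direction that makes Ednrb-/- values higher. Ednrb itself checked the labels: it ranged from 26.2 to 41.8 FPKM in the WT libraries and from 1.59 to 4.80 FPKM in the Ednrb-/- libraries. Xist, made from the inactive X chromosome, and Ddx3y, a gene of the Y chromosome, were both above 5 FPKM in 3 libraries: WT caudal replicate 2, Ednrb-/- trunk replicate 3 and Ednrb-/- caudal replicate 3. The groups also differed in the number of libraries with high Xist and low Ddx3y, which was 2 in WT trunk, 1 in WT caudal, 1 in Ednrb-/- trunk and 0 in Ednrb-/- caudal. Results without the 3 libraries are given beside each limma comparison of the 10 genes and for some of the other lists. They were not computed for ratios. Whether the replicates are separate embryos beyond their label is not stated, so p-values measure the spread between these libraries.

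Endothelial transcripts were most abundant in the Ednrb-/- caudal region. Summed over the 10 genes, the level was 81.6 to 93.8 FPKM in WT trunk, 98.7 to 103 FPKM in Ednrb-/- trunk, 100 to 108 FPKM in WT caudal and 125 to 135 FPKM in Ednrb-/- caudal libraries. The Ednrb-/- caudal sums lay above all others, and those of WT caudal and Ednrb-/- trunk overlapped. In bulk tissue, a different share of endothelial cells and a different amount of RNA per cell cannot be told apart. Plvap and Cdh5 were the highest of the 10 in every group, at 15.9 to 27.7 FPKM in group means, and Flt1 was the lowest, at 1.82 to 3.13 FPKM. Cldn5, Kdr and Pecam1 came next in that order, then Tie1. In WT trunk the ranges of Cdh5 and Plvap overlapped, as did those of Kdr and Pecam1, of Egfl7 and Tek, and of Tek and Emcn. Within each WT trunk library, however, Kdr lay above Pecam1 and Tek above Emcn, while the other pairs changed order between libraries. In WT caudal libraries the ranges overlapped for Plvap and Cdh5, Cldn5 and Kdr, Kdr and Pecam1, Tek and Egfl7, and Egfl7 and Emcn. Overlap of ranges ignores that both genes were measured in the same libraries, and neighbours were not tested. In both Ednrb-/- groups the overlapping neighbours were Cldn5 with Kdr, Pecam1 with Tie1 and Tek with Emcn.

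**Figure D1:**
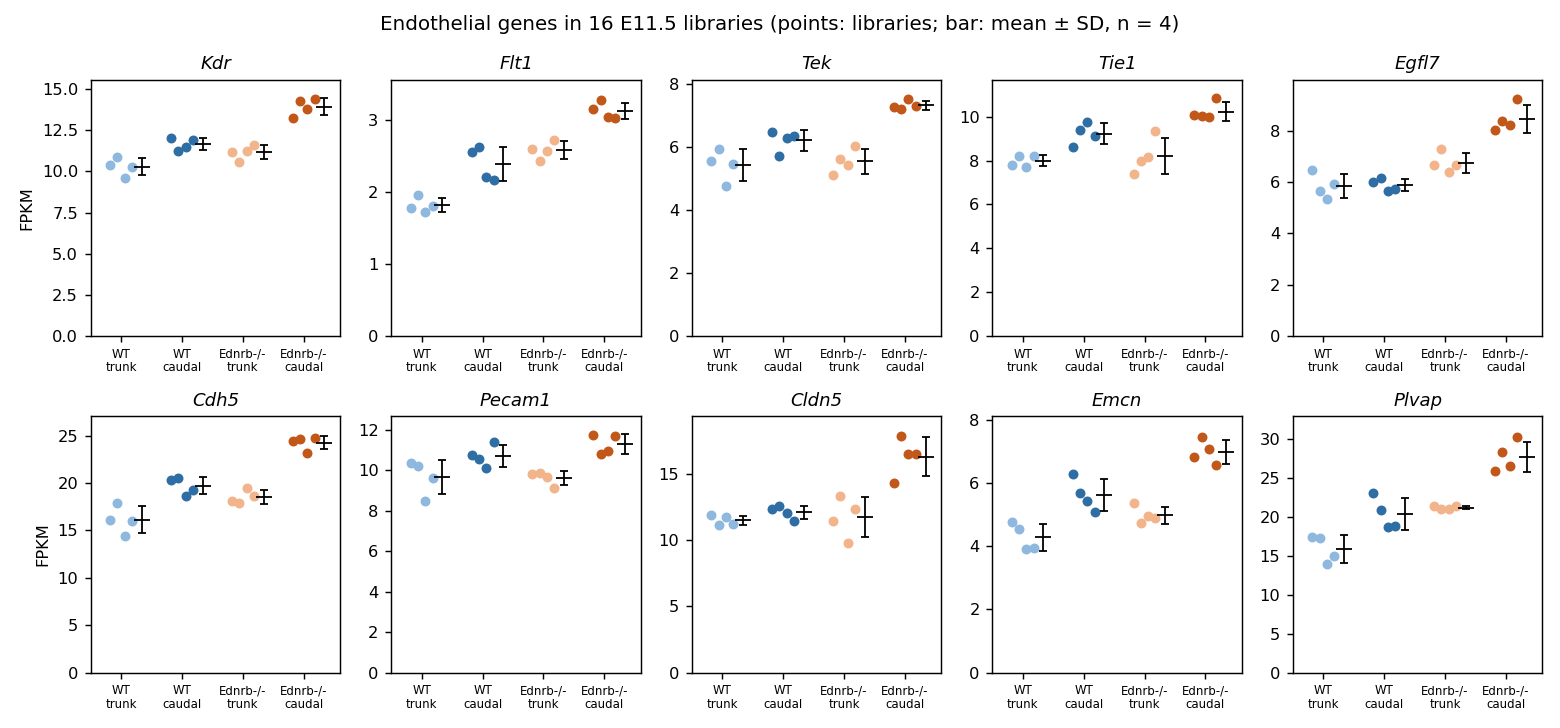
Level in FPKM (y axis, from 0, linear, own scale in each panel) of the 10 endothelial genes in each of the 4 genotype-by-region groups (x axis). Points are the 4 libraries of a group and the bar beside them is the mean ± SD; Ednrb-/- caudal libraries lie above all WT caudal libraries for 9 genes and overlap them for Pecam1.

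In the caudal region, 8 of the 10 genes were higher in Ednrb-/- than in WT embryos: Egfl7, Plvap, Cldn5, Flt1, Cdh5, Emcn, Kdr and Tek. None was lower, and the calls were made with limma at a Benjamini-Hochberg adjusted p under 0.05 over 17205 tested genes. Of all tested genes, 21.7% were called higher in this comparison. For 9 of the 10, no Ednrb-/- library overlapped a WT library with Ednrb-/- on the higher side, against 19.1% of all genes. The median log2 difference of the 10 was 0.29, beside 0.01 over all tested genes. Over all genes the calls fell into 3732 higher and 3432 lower, but into 2216 higher and 5028 lower after rescaling to TPM, in which every library has the same sum, when the median of the 10 was 0.19. With the sum of listed reads as library total the calls over all genes were 2670 higher and 4357 lower, the median of the 10 was 0.23 and 7 of them were called. Without the 3 libraries holding both Xist and Ddx3y, 7 of the 10 were called higher.

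Among the receptors, Flt1 was 2.56, 2.63, 2.21 and 2.17 FPKM in WT caudal replicates 1 to 4 and 3.16, 3.29, 3.05 and 3.03 FPKM in the Ednrb-/- caudal replicates. Every Ednrb-/- library lay above every WT library, a 1.26-fold difference (log2 0.33 ± 0.06 SE, limma adjusted p = 0.00071, n = 4 a group). Kdr was 12.0, 11.2, 11.48 and 11.9 FPKM in WT and 13.2, 14.3, 13.8 and 14.4 FPKM in Ednrb-/- caudal libraries. These too did not overlap, at 1.19-fold (log2 0.25 ± 0.04, limma adjusted p = 0.00031). Tek, the angiopoietin receptor, was 6.47, 5.73, 6.29 and 6.36 FPKM in WT and 7.28, 7.20, 7.55 and 7.30 FPKM in Ednrb-/- libraries, again with no overlap. Its difference was 1.17-fold (log2 0.22 ± 0.06, limma adjusted p = 0.0088), and the call was lost after rescaling to TPM (adjusted p = 0.12), with the sum of listed reads as library total (0.060), with voom on whole reads (0.051) and without the 3 libraries holding Xist and Ddx3y (0.080). Tie1, the partner of Tek, was 8.62, 9.40, 9.76 and 9.11 FPKM in WT and 10.1, 10.0, 9.98 and 10.9 FPKM in Ednrb-/- libraries. The ranges did not meet, yet the difference of log2 0.14 ± 0.06 did not pass (limma adjusted p = 0.063). It passed without WT caudal replicate 3 (0.044), Ednrb-/- trunk replicate 1 (0.043) or Ednrb-/- trunk replicate 4 (0.022).

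Egfl7, a secreted protein that helps arrange endothelial cells into tubes, had the largest caudal difference of the 10. It was 6.01, 6.15, 5.65 and 5.73 FPKM in WT and 8.01, 8.38, 8.21 and 9.23 FPKM in Ednrb-/- caudal libraries. No library overlapped, and the difference was 1.40-fold on FPKM + 0.5 (log2 0.49 ± 0.06, limma adjusted p = 2.2e-05). Egfl7 hosts the endothelial microRNA gene Mir126a, which was listed at 0 in all 16 libraries together with Mir126b on the other strand. Both lie wholly within Egfl7, and how reads there were assigned is not stated, so these values of 0 do not show absence. The 3′ end of Egfl7 overlaps Agpat2 on the opposite strand, listed at 1.73 to 3.13 FPKM, and the labels do not state whether strand was used in the counting. Reads of the stretch shared with Agpat2 therefore cannot be told apart. Gm20532, a protein-coding gene on the same strand as Egfl7, also overlaps it and was listed at 0 in all 16 libraries. How reads of that overlap were counted is not stated.

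Of the junction genes, Cdh5 and Cldn5 passed in the caudal region and Pecam1 did not. Cdh5, the adhesion molecule of endothelial junctions, was 20.3, 20.6, 18.7 and 19.2 FPKM in WT and 24.4, 24.6, 23.2 and 24.8 FPKM in Ednrb-/- caudal libraries, without overlap (log2 0.29 ± 0.05, limma adjusted p = 0.00047). Cldn5, a tight-junction protein, was 12.3, 12.5, 12.0 and 11.4 FPKM in WT and 14.3, 17.8, 16.5 and 16.5 FPKM in Ednrb-/- libraries. All 4 Ednrb-/- values lay above the WT range, with replicate 1 nearest to it (log2 0.41 ± 0.08, limma adjusted p = 0.00063). Pecam1, which endothelial cells share with platelets and some leukocytes, was 10.7, 10.6, 10.1 and 11.4 FPKM in WT and 11.7, 10.8, 11.0 and 11.7 FPKM in Ednrb-/- libraries. These overlapped, and the difference of log2 0.08 ± 0.06 did not pass (limma adjusted p = 0.31).

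Of the surface glycoproteins, Plvap, which forms the diaphragms of fenestrae and caveolae, was 23.0, 20.9, 18.7 and 18.9 FPKM in WT and 25.9, 28.3, 26.5 and 30.2 FPKM in Ednrb-/- caudal libraries. The groups stood apart, at 1.36-fold (log2 0.44 ± 0.08, limma adjusted p = 0.00033). Plvap overlaps the end of Gtpbp3 on the opposite strand, listed at 5.07 to 8.90 FPKM, so the same limit on strand applies. Emcn, a sialomucin of venous and capillary endothelium, was 6.30, 5.69, 5.45 and 5.10 FPKM in WT and 6.83, 7.48, 7.08 and 6.59 FPKM in Ednrb-/- libraries. WT replicate 1 came nearest to the Ednrb-/- range without reaching it (log2 0.29 ± 0.07, limma adjusted p = 0.0038).

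Trunk tissue showed a smaller set. Flt1, Plvap, Cdh5, Egfl7 and Emcn were higher in Ednrb-/- trunk than in WT trunk, 5 of the 10, where 12.2% of all tested genes were called higher. Only Flt1 and Plvap separated without overlap, 2 of 10 against 13.9% of all genes. The median difference of the 10 was log2 0.15, beside 0.00 over all tested genes. Calls over all genes divided into 2092 higher and 2229 lower, and into 1643 higher and 2733 lower with the sum of listed reads as library total, when the median of the 10 was 0.12 and 3 were called. Without the 3 libraries holding both Xist and Ddx3y, 3 of the 10 were also called.

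Flt1 was 1.78, 1.97, 1.73 and 1.81 FPKM in WT trunk and 2.60, 2.44, 2.57 and 2.73 FPKM in Ednrb-/- trunk libraries. With every Ednrb-/- library higher, the difference was 1.33-fold (log2 0.41 ± 0.06, limma adjusted p = 0.00035). Plvap was 17.4, 17.3, 13.9 and 14.9 FPKM in WT and 21.4, 21.0, 21.0 and 21.4 FPKM in Ednrb-/- trunk. The Ednrb-/- replicates were close together, with an SD of 0.232 FPKM, and all exceeded WT (1.33-fold, log2 0.41 ± 0.08, limma adjusted p = 0.0013). Cdh5 was 16.1, 17.9, 14.5 and 16.0 FPKM in WT and 18.1, 17.9, 19.5 and 18.7 FPKM in Ednrb-/- trunk. WT replicate 2 fell within the Ednrb-/- range (log2 0.20 ± 0.05, limma adjusted p = 0.014, and 0.052 without the 3 libraries).

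Egfl7 was 6.47, 5.67, 5.32 and 5.94 FPKM in WT trunk and 6.64, 7.29, 6.39 and 6.66 FPKM in Ednrb-/- trunk. WT replicate 1 overlapped the lowest Ednrb-/- value, and the call (log2 0.19 ± 0.06, limma adjusted p = 0.027) was lost without WT trunk replicate 2 (0.070), WT trunk replicate 3 (0.086) or Ednrb-/- trunk replicate 2 (0.088). It was also lost with the sum of listed reads as library total (0.064), with voom on whole reads (0.079) and when the fit held the trunk libraries alone (0.060), and held in 24 of 30 settings. Emcn was 4.76, 4.54, 3.92 and 3.94 FPKM in WT and 5.37, 4.74, 4.96 and 4.88 FPKM in Ednrb-/- trunk. Ednrb-/- replicate 2 lay just below WT replicate 1, and the call sat at the threshold (log2 0.20 ± 0.07, limma adjusted p = 0.049982). It held in 10 of 30 alternative settings, and 12 of the 16 fits that left out a single library lost it, with adjusted p up to 0.14. The exceptions left out WT trunk replicate 1, WT caudal replicate 1, WT caudal replicate 4 or Ednrb-/- caudal replicate 2.

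The other 5 did not pass in the trunk. Kdr was 10.4, 10.9, 9.61 and 10.2 FPKM in WT and 11.2, 10.6, 11.3 and 11.6 FPKM in Ednrb-/-, overlapping at 1 library on each side (log2 0.12 ± 0.04, limma adjusted p = 0.060). It passed without WT trunk replicate 2 (0.037) or Ednrb-/- trunk replicate 2 (0.041). Cldn5 was 11.9, 11.1, 11.7 and 11.2 FPKM in WT and 11.4, 13.3, 9.75 and 12.3 FPKM in Ednrb-/-, which scattered on both sides of WT. Its log2 difference was 0.02 ± 0.08 (limma adjusted p = 0.89). Tek (0.03 ± 0.06), Tie1 (0.03 ± 0.06) and Pecam1 (-0.00 ± 0.06) had overlapping groups and limma adjusted p of 0.77, 0.71 and 0.98.

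**Figure D2:**
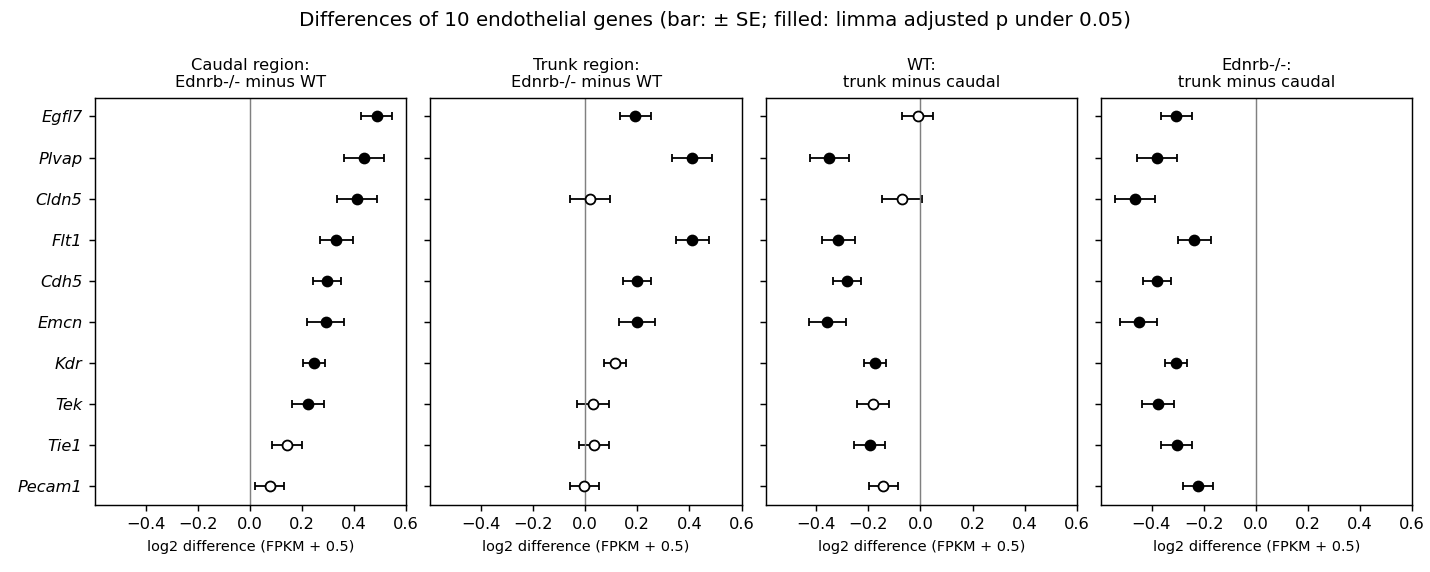
Log2 difference of FPKM + 0.5 (x axis) for each of the 10 genes (y axis) in 4 comparisons; points are estimates, bars ± SE, and filled points passed limma's adjusted p under 0.05. All genes except Pecam1 and Tie1 are filled in the caudal genotype panel, 5 are filled in the trunk panel, 6 in the WT region panel and all 10 in the Ednrb-/- region panel.

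Whether the genotype difference itself varied with region was tested with the interaction term, caudal minus trunk. It passed for Cldn5 (log2 0.39 ± 0.11, limma adjusted p = 0.044) and Egfl7 (0.29 ± 0.08, adjusted p = 0.049), 2 of 10, both with a positive sign. A positive term was called for 2.98% of all tested genes. It means a more positive Ednrb-/- minus WT difference in the caudal region than in the trunk. For Flt1 the interaction was -0.08 ± 0.09 and for Plvap 0.03 ± 0.11, with adjusted p of 0.64 and 0.91. The remaining 6 gave adjusted p from 0.19 to 0.63, and an interaction that did not pass does not show equal differences. Cldn5 kept its call in 13 of 29 alternative settings and Egfl7 in 11 of 29. Among fits that left out a single library, Cldn5 passed only without WT caudal replicate 2, Ednrb-/- trunk replicate 2, Ednrb-/- trunk replicate 4 or Ednrb-/- caudal replicate 1. Egfl7 passed only without WT trunk replicate 3, WT caudal replicate 2, Ednrb-/- trunk replicate 2, Ednrb-/- caudal replicate 1 or Ednrb-/- caudal replicate 3. The other single-library omissions gave adjusted p of up to 0.087 for Cldn5 and 0.10 for Egfl7. Neither passed without the 3 libraries holding Xist and Ddx3y (0.083 and 0.091). Interaction calls over all genes were 513 upward and 650 downward, and 298 upward and 1129 downward after rescaling to TPM.

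Region was compared within each genotype. In WT embryos 6 of the 10 genes were lower in the trunk than in the caudal region: Emcn, Plvap, Flt1, Cdh5, Tie1 and Kdr, where 8.35% of all tested genes were called lower. Their log2 differences ran from -0.36 ± 0.07 for Emcn (limma adjusted p = 0.0027) to -0.17 ± 0.04 for Kdr (adjusted p = 0.011). Libraries of the 2 regions did not overlap for these 6, against 10.3% of all genes. Tie1 (-0.19 ± 0.06, limma adjusted p = 0.031) was lost without WT trunk replicate 1 (0.069), WT trunk replicate 3 (0.080), WT caudal replicate 2 (0.079) or WT caudal replicate 3 (0.093). Tek (-0.18 ± 0.06, adjusted p = 0.054) and Pecam1 (-0.14 ± 0.06, adjusted p = 0.097) did not pass. Tek passed without WT trunk replicate 2 (0.029), WT caudal replicate 2 (0.041), Ednrb-/- trunk replicate 1 (0.0498) or Ednrb-/- trunk replicate 4 (0.044). Egfl7 (-0.01 ± 0.06) and Cldn5 (-0.07 ± 0.08) were the closest to equal across WT regions. The median over the 10 was -0.19, and without the 3 libraries 5 of the 10 were called.

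In Ednrb-/- embryos all 10 genes were lower in the trunk than in the caudal region, and the libraries of the regions did not overlap for any of them. Over all tested genes 18.9% were called lower and 16.8% did not overlap on that side. The log2 difference ranged from -0.46 ± 0.08 for Cldn5 (limma adjusted p = 0.00035) to -0.22 ± 0.06 for Pecam1 (adjusted p = 0.0069), with a median of -0.34. Pecam1 did not pass after rescaling to TPM (0.072), and all 10 passed without the 3 libraries holding Xist and Ddx3y. Calls over all genes were 2982 higher and 3252 lower in the trunk, and 3946 higher and 1943 lower after that rescaling. The 2 genotype and the 2 region comparisons share libraries, so they are not independent of each other.

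Ratios between paired receptors and between surface and junction genes were compared over the same libraries with 12 two-sided exact permutation tests, in which 4 against 4 libraries cannot give a p under 0.0286. The ratio of Kdr to Flt1 was 5.64 ± 0.130 (SD, n = 4) in WT trunk and 4.32 ± 0.0578 in Ednrb-/- trunk, without overlap (exact permutation p = 0.0286, adjusted 0.114). In the caudal region the ratio was 4.91 ± 0.536 in WT and 4.45 ± 0.240 in Ednrb-/- (exact permutation p = 0.2). Plvap relative to Cldn5 was 1.39 ± 0.161 in WT trunk and 1.83 ± 0.241 in Ednrb-/- trunk (exact permutation p = 0.0286, adjusted 0.114). Tek relative to Tie1 stayed between 0.676 and 0.717 in the group means. Between WT regions, Kdr to Flt1 also reached the smallest possible p (exact permutation p = 0.0286, adjusted 0.114). None of the 12 passed after adjustment. With that smallest p, none can pass unless many of the 12 reach it, so the failure does not show equal ratios.

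Ligands and co-receptors of the same pathways were read from a list of 15 genes, of which 14 passed the filter. Flt4, Nrp2 and Aplnr also stand on the venous list described further on, and Flt4 on the lymphatic one. Flt4, Apln, Angpt2, Pgf and Aplnr were higher and Nrp2 and Vegfd lower in the Ednrb-/- caudal region, 5 and 2 of 14 beside 21.7% and 19.9% of all tested genes, and the median of the list was log2 0.09. After rescaling to TPM, Flt4 alone was higher and 3 genes were lower. Flt4, the receptor for Vegfc, was 2.33, 2.06, 2.28 and 1.99 FPKM in WT caudal and 3.34, 3.28, 2.92 and 3.26 FPKM in Ednrb-/- caudal libraries, without overlap (log2 0.47 ± 0.09, limma adjusted p = 0.00090). Apln, the ligand of the apelin receptor and a gene of sprouting tip cells, was 3.00, 2.93, 3.29 and 3.15 FPKM in WT and 3.65, 5.98, 3.64 and 4.38 FPKM in Ednrb-/-. Its Ednrb-/- values lay higher throughout but were spread widely (log2 0.43 ± 0.14, limma adjusted p = 0.022). Angpt2, a context-dependent ligand of Tek, was 1.73, 1.76, 1.13 and 1.49 FPKM in WT and 2.03, 2.20, 2.13 and 1.96 FPKM in Ednrb-/- (log2 0.36 ± 0.12, adjusted p = 0.025 by limma). Pgf, a VEGF relative that binds Flt1, was 0.30 ± 0.11 higher on the log2 scale (limma adjusted p = 0.048), with overlapping libraries. Flt4 passed in all 30 alternative settings, Apln in 28, Angpt2 in 24, Aplnr in 17 and Pgf in 10.

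Vegfa, the principal Kdr ligand, was 20.05, 16.5, 17.4 and 21.1 FPKM in WT caudal and 18.1, 16.9, 18.01 and 17.3 FPKM in Ednrb-/- caudal libraries. The ranges overlapped and the difference was not called (log2 -0.09 ± 0.08, limma adjusted p = 0.43). Angpt1, the activating ligand of Tek, was 6.29 FPKM in WT and 6.09 FPKM in Ednrb-/- caudal means (log2 -0.04 ± 0.07, adjusted p = 0.66). Nrp2, a co-receptor, fell by 0.32 in log2 units (limma adjusted p = 0.00046) and Vegfd by 0.33 (adjusted p = 0.036, held in 18 of 30 settings). Aplnr, the apelin receptor, was 0.11 ± 0.04 higher (adjusted p = 0.035), and Vegfb, Vegfc, Nrp1, Ptprb and Apela did not pass. In the trunk Flt4 (log2 0.31 ± 0.09, limma adjusted p = 0.025) and Nrp1 (0.14 ± 0.04, adjusted p = 0.0096) were higher in Ednrb-/- and Nrp2 fell by 0.21 (adjusted p = 0.016). These trunk calls held in 24, 27 and 28 of 30 settings. Flt4 was lost with no filter (0.051), when the fit held the trunk libraries alone (0.075) and without WT trunk replicate 1, 3 or 4 or Ednrb-/- trunk replicate 4 (0.051 to 0.072). Nrp1 was lost after rescaling to TPM (0.065), with the sum of listed reads (0.084) and with voom (0.073), and Nrp2 without WT trunk replicate 4 (0.054) or Ednrb-/- trunk replicate 2 (0.052). Trunk values of Pgf (log2 -0.31 ± 0.11, limma adjusted p = 0.059) and Apln (-0.25 ± 0.14, adjusted p = 0.20) did not pass and were opposite in sign to the caudal ones. Both genes differed between regions in their genotype difference (interaction log2 0.60 ± 0.16 and 0.68 ± 0.20, limma adjusted p = 0.037 and 0.049), in 17 and 10 of 29 settings. Angpt4, below the filter, was 0.303 FPKM in the WT caudal and 0.413 FPKM in the Ednrb-/- caudal mean.

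**Figure D3:**
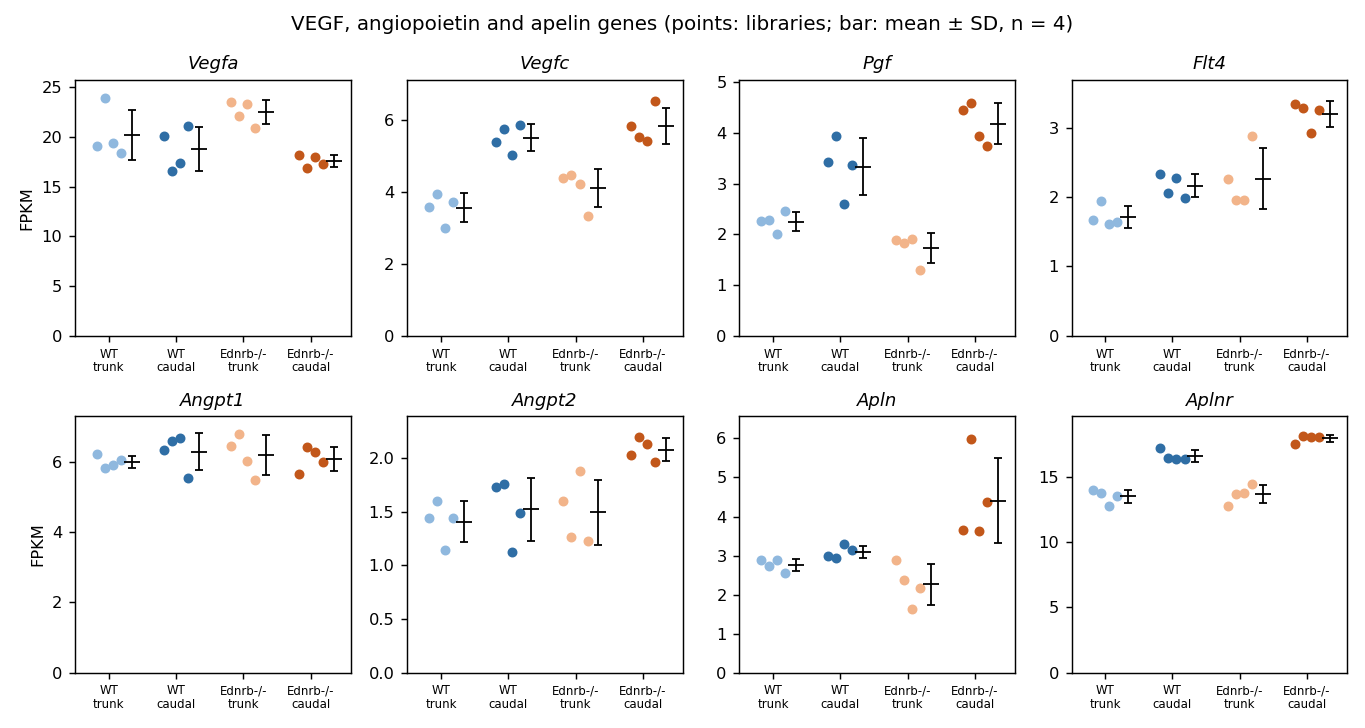
Level in FPKM (y axis, from 0, linear, own scale in each panel) of 8 genes of the VEGF, angiopoietin and apelin pathways in the 4 groups (x axis); points are libraries and bars mean ± SD (n = 4). Flt4, Angpt2, Apln and Aplnr separate the Ednrb-/- caudal from the WT caudal libraries, while Vegfa and Angpt1 overlap.

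Of 29 tested genes on a wider endothelial list, 8 were higher and 2 lower in the Ednrb-/- caudal region (median log2 0.13) and 5 were higher and 2 lower in the trunk (median 0.04). Beside 21.7% and 12.2% of all tested genes called higher in the 2 regions, these shares do not set the list apart. These counts depended on scaling: after rescaling to TPM, 0 were higher and 4 lower in the caudal region, where 7 of the 10 genes described here still passed. Without the 3 libraries holding Xist and Ddx3y, 4 were higher and 2 lower there. Cd34, a sialomucin of vessels and progenitors, rose from 8.89 to 10.4 FPKM in caudal means (log2 0.21 ± 0.05, limma adjusted p = 0.0038, and 0.071 after rescaling to TPM). Vwf, which carries clotting factor in endothelial granules, was higher in both regions (log2 0.31 ± 0.10 caudal and 0.37 ± 0.10 trunk, limma adjusted p = 0.018 and 0.012). Cav1, the main protein of caveolae, went the other way in both (-0.41 ± 0.12 and -0.47 ± 0.12, adjusted p = 0.013 and 0.012). Esam, a junction molecule, was 0.26 ± 0.08 higher in the caudal region (adjusted p = 0.013) and -0.01 ± 0.08 in the trunk.

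Endothelial transcription factors were mixed, with 4 higher and 1 lower of 20 tested in the caudal region and 5 higher and 2 lower in the trunk, where 21.7% and 12.2% of all tested genes were called higher. Nothing particular to the list is read from these counts. After rescaling to TPM the caudal counts were 1 higher and 4 lower. Ets1 (log2 0.19 ± 0.05 caudal, 0.21 ± 0.05 trunk) and Etv6 (0.20 ± 0.06, 0.34 ± 0.06) passed in both regions, with limma adjusted p from 0.00091 to 0.013, though under TPM neither passed in the caudal region (0.11 and 0.13). Ets2 was 12.7 FPKM in WT and 17.0 FPKM in Ednrb-/- caudal means (log2 0.40 ± 0.06, adjusted p = 8.5e-05) and -0.09 ± 0.06 in the trunk, and its interaction passed (0.49 ± 0.08, adjusted p = 0.0050). Mef2c, also expressed in muscle and neural crest, fell by 0.79 in the caudal region (limma adjusted p = 7.5e-07) and by 0.25 in the trunk (adjusted p = 0.0045). Etv2, the early factor that specifies endothelial precursors, stayed below the filter. It was 0.0518, 0.0522, 0 and 0.104 FPKM in WT caudal and 0.155, 1.22, 0.241 and 0.493 FPKM in Ednrb-/- caudal libraries. All 4 lay above WT, with replicate 2 far above the rest. Values so close to 0 rest on very few reads, so little can be read from this order, and no test was made.

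Of 14 artery and Notch genes, 4 were higher and 2 lower in the caudal region (median log2 0.15), and in the trunk 5 were higher and 0 lower (median 0.18), beside the same 21.7% and 12.2% called higher of all tested genes. Rescaling to TPM left 2 higher and 2 lower in the caudal region and 5 higher in the trunk. Without the 3 libraries holding Xist and Ddx3y, 5 were higher and 0 lower in the caudal region. Gja4, a gap-junction protein of arterial endothelium, was higher in both (log2 0.48 ± 0.07 caudal, 0.31 ± 0.07 trunk, limma adjusted p = 9.2e-05 and 0.0054). The Notch ligand Dll4 was likewise higher (0.31 ± 0.08 and 0.47 ± 0.08, adjusted p = 0.0087 and 0.0012). Among 5 venous genes, 3 were higher and 1 lower in the caudal region, and 2 were higher and 1 lower in the trunk. Over all tested genes 21.7% and 12.2% were called higher, and 19.9% and 13% lower. Rescaling to TPM left 1 higher and 1 lower in the caudal region. Nr2f2, the factor that specifies veins, passed in both regions (0.20 ± 0.07 and 0.52 ± 0.07, limma adjusted p = 0.041 and 0.00019). Its caudal call held in 16 of 30 settings and was lost after rescaling to TPM (0.29), while Nrp2 was lower in both regions. Of 6 lymphatic genes, 5 were lower and 1, Flt4, higher in the caudal region, beside 19.9% and 21.7% of all tested genes. Without the 3 libraries holding Xist and Ddx3y, 4 were lower. Prox1, the lymphatic determinant that neural and other cells also express, fell by 0.51 there (limma adjusted p = 0.00050), and Reln and Lyve1 fell in both regions by 0.65 to 0.98.

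**Figure D4:**
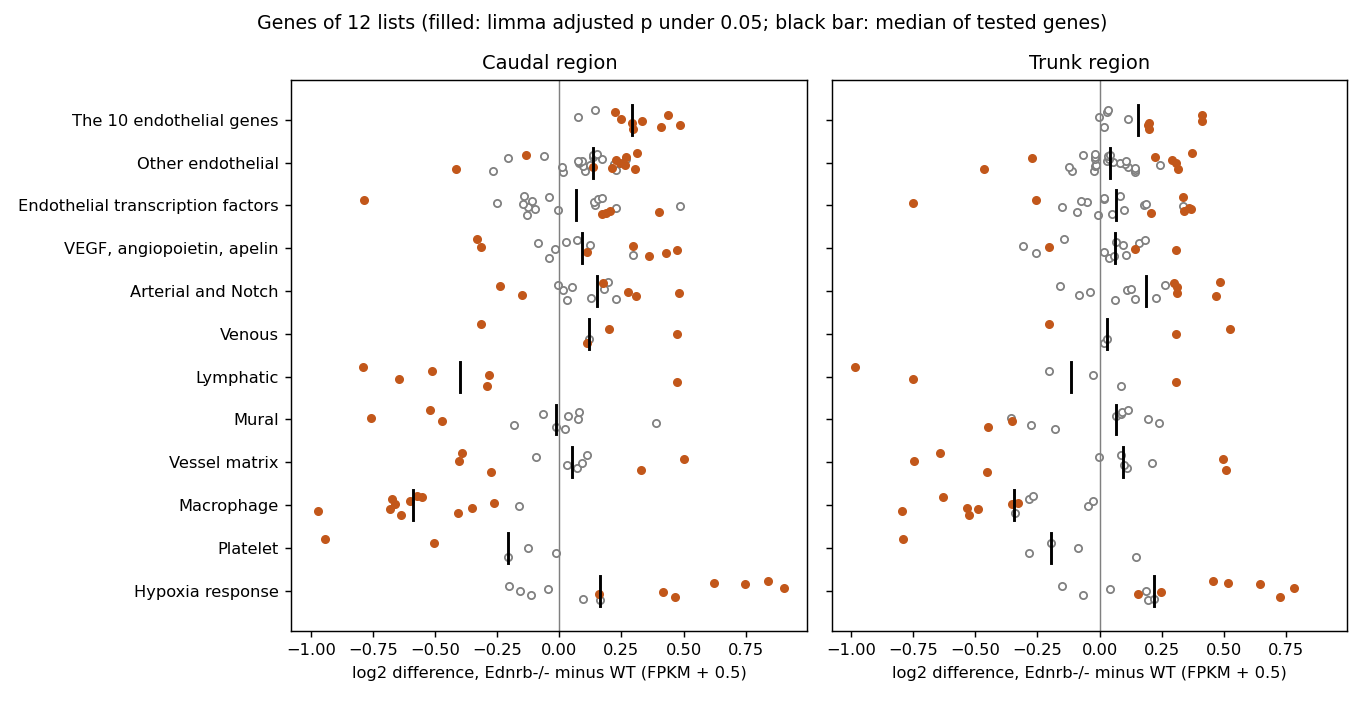
Log2 difference between Ednrb-/- and WT (x axis) in the caudal region (left) and trunk region (right) for the tested genes of 12 lists (y axis); each point is a gene, filled where limma's adjusted p was under 0.05, and the black bar is the list's median. The 10 endothelial genes have a median of 0.29 in the caudal and 0.15 in the trunk region, while macrophage genes have medians of -0.59 and -0.35.

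Markers of other cells in the tissue were read in the same genotype comparisons. Of 12 tested macrophage genes, 11 were lower in Ednrb-/- in the caudal region and 7 in the trunk, with none higher (8 and 5 without the 3 libraries holding Xist and Ddx3y), where 19.9% and 13% of all tested genes were called lower. The summed level of the 13 listed was 39.5 to 48.4 FPKM in WT caudal, 24.2 to 32.0 FPKM in Ednrb-/- caudal, 33.0 to 41.5 FPKM in WT trunk and 24.7 to 30.9 FPKM in Ednrb-/- trunk libraries. Csf1r, the growth-factor receptor of macrophages, fell by 0.66 in the caudal region (limma adjusted p = 9.5e-05). Genes of the response to low oxygen were higher for 7 of 13 in each region, beside 21.7% (caudal) and 12.2% (trunk) of all tested genes. In the caudal region 6 were higher and 2 lower after rescaling to TPM, and likewise with voom on whole reads. With voom 5 were higher in the trunk. Their sums were 447 to 532 FPKM in WT caudal and 696 to 856 FPKM in Ednrb-/- caudal libraries. Ldha, which makes lactate, was 168 FPKM in WT and 315 FPKM in Ednrb-/- caudal means (log2 0.90 ± 0.08, limma adjusted p = 3.6e-06). Of 3 endocardial genes, Cgnl1 was higher (log2 0.56 ± 0.07) and Npr3 fell by 0.39 in the caudal region, beside 21.7% and 19.9% of all tested genes. In the trunk none was higher and 2, Npr3 and Nfatc1, were lower, where 13% of all tested genes were called lower. Of 11 tested genes of pericytes and smooth muscle, 3 were lower in the caudal region and 2 in the trunk, with none higher. This stands beside 19.9% and 13% of all tested genes called lower. Of 5 tested platelet genes, 2 were lower in the caudal and 1 in the trunk region, beside the same shares. Without the 3 libraries holding Xist and Ddx3y these counts were 1 and 0. The sum of all 8 listed was 21.6 to 26.4 FPKM in WT caudal and 12.47 to 24.2 FPKM in Ednrb-/- caudal libraries. Of 13 erythroid genes, 2 were higher and 6 lower in the caudal region, and 2 higher and 5 lower in the trunk. Over all tested genes 21.7% and 12.2% were called higher in the caudal and trunk regions, and 19.9% and 13% lower. Hbb-bs, an adult-type beta globin, was 39.4 FPKM in WT and 4.13 FPKM in Ednrb-/- caudal means (log2 -3.16 ± 0.21, limma adjusted p = 3.7e-07) and 27.4 and 3.82 FPKM in trunk means (-2.70 ± 0.21, adjusted p = 3.3e-06). Hbb-bh1, an embryonic beta globin, was higher in Ednrb-/- by log2 0.82 ± 0.12 in the caudal region (limma adjusted p = 9.2e-05) and 0.43 ± 0.12 in the trunk (adjusted p = 0.017, held in 28 of 30 settings). Beta globin genes are similar copies that can share reads, so their values are uncertain. None of these lists had a gene at 0 in all 16 libraries. The part of these shifts in the endothelial differences was not tested.

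Of 10 tested vessel matrix genes, 2 were higher and 3 lower in each region. Over all tested genes 21.7% and 12.2% were called higher in the caudal and trunk regions, and 19.9% and 13% lower. After rescaling to TPM, 2 were higher and 4 lower in the caudal region. Col18a1 (log2 0.33 ± 0.08 caudal, 0.51 ± 0.08 trunk) and Lama5 (0.50 ± 0.12 in each) were higher in Ednrb-/-, and Sparc, Lama4 and Col15a1 were lower in both regions, with limma adjusted p from 2.2e-05 to 0.029. The caudal call of Col15a1 (-0.27, adjusted p = 0.029) held in 22 of 30 settings, and the adjusted p of its losses ran from 0.056 to 0.11. These basement membrane proteins are also made by many other cells.

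The 10 genes varied together between groups and much less within them. Across the 16 libraries the median Pearson r of the 45 pairs, on log2(FPKM + 0.5), was 0.80, from 0.54 for Cldn5 with Pecam1 to 0.96 for Cdh5 with Kdr. After subtraction of group means it was 0.23, from -0.40 for Tie1 with Emcn to 0.71 for Plvap with Emcn. Plvap followed the mean of the other 9 most closely within groups (r = 0.87), and Cldn5 and Tie1 the least (0.09 for each). All points share the libraries and their depth, so these values describe the data only. The genes most like the mean of the 10 across 16 libraries, among 13808 with a mean of at least 1 FPKM, were F11r, Tbl1x, Cldn6, Emilin2, Ctnna1, Map2k6, Krt8 and Csrp2, with r from 0.956 to 0.965. Within groups they were Rnf213, Pml, Cops7a, AU020206, Podxl, Gata4, Gm45889 and Wasf2, with r from 0.865 to 0.931.

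**Figure D5:**
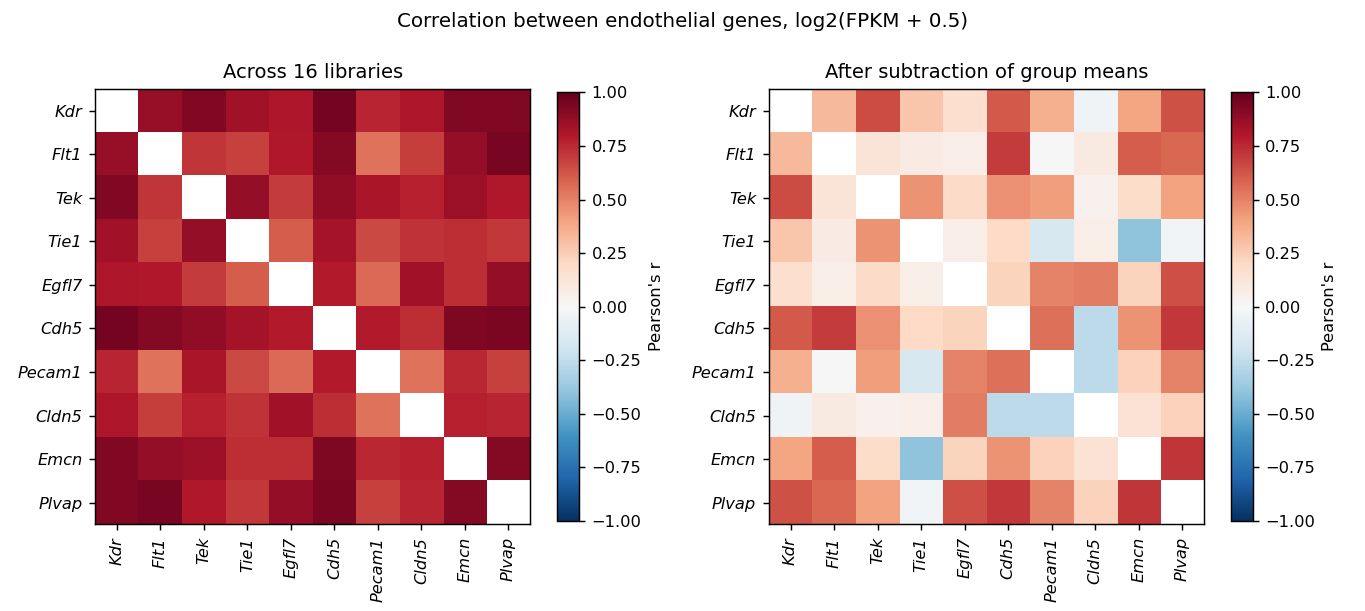
Pearson's r between the 10 genes (both axes; colour scale from -1 to 1) on log2(FPKM + 0.5), across 16 libraries (left) and after subtraction of each group's mean (right). The pairs have a median r of 0.80 on the left and 0.23 on the right, with Tie1 and Cldn5 palest on the right.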

How the data were processed

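RNA of 16 mouse samples was sequenced, and the authors deposited 1 table of FPKM values per gene and library. Per the submitters' processing notes, fastp, HISAT2 2.0.5 and featureCounts 1.5.0-p3 were used with build mm39; annotation release and strand setting are not given there. Within a tolerance of 0.01, 100% of FPKM values corresponded to whole reads, which gave the depths; libraries of 1 group differed by more than sampling noise (chi-square per degree of freedom 5.80 to 17.8).

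A gene was tested if 4 or more libraries reached 0.5 FPKM, on log2(FPKM + 0.5), so folds of low genes are understated. Group means of all 16 libraries were fitted with limma 3.58.1 (R 4.3.3, trended prior variance), contrasts were adjusted by Benjamini-Hochberg over 17205 genes, and the script was checked on simulated data. Ratios were compared with exact permutation tests over all 70 assignments of the libraries (Python 3.11.15). Alternatives covered the pseudocount, filter, scaling, voom on whole reads, array weights, sex, a replicate block and omitted libraries.

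Named genes were the 10 members, every gene of the VEGF and angiopoietin list, and up to 4 genes per other list with the smallest adjusted p in each genotype comparison. Etv2 and the genes overlapping members were added after their values were seen. Members and lists were chosen with earlier results of these data known. Promoter sequences are RefSeq's, build GRCm38.p6. No coordinates were converted.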

Additional observations from a re-analysis of the deposited data

Results flagged for a closer look

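Within groups of 4 libraries, 6 of 100 gene-by-group sets over the 10 endothelial genes and the VEGF, angiopoietin and apelin list held a library far from the rest by Dixon's criterion, which chance alone gives in about 1 of 20. Tie1 was 10.9 FPKM in Ednrb-/- caudal replicate 4, beside 9.98 to 10.1 FPKM in the other libraries of the group. Pgf was 1.30 FPKM in Ednrb-/- trunk replicate 4, below the 1.84 to 1.92 FPKM of the others. Flt4 was 1.95 FPKM in WT trunk replicate 2 (others 1.61 to 1.67 FPKM), and Angpt4 was 0.524 FPKM in WT trunk replicate 1 (others 0.295 to 0.309 FPKM). Aplnr was 17.2 FPKM in WT caudal replicate 1, above 16.3 to 16.5 FPKM, and 17.5 FPKM in Ednrb-/- caudal replicate 1, just below 18.1 FPKM in the others.

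The genotype difference itself varied with region, by limma's interaction term (caudal minus trunk, log2), for Cldn5 (0.39 ± 0.11 SE, adjusted p = 0.044) and Egfl7 (0.29 ± 0.08, adjusted p = 0.049) among the 10 genes. For Pgf (0.60 ± 0.16, limma adjusted p = 0.037) the Ednrb-/- minus WT values were 0.30 in the caudal region and -0.31 in the trunk, and for Apln (0.68 ± 0.20, adjusted p = 0.049) they were 0.43 and -0.25, neither trunk value passing alone. Ets2 (0.49 ± 0.08, limma adjusted p = 0.0050) stood at 0.40 and -0.09, and the endocardial gene Cgnl1 (0.45 ± 0.10, adjusted p = 0.019) at 0.56 and 0.11, with only the caudal values passing. The term was negative for Mef2c (-0.53 ± 0.08, limma adjusted p = 0.0031), which was lower in both regions, at -0.79 caudal and -0.25 trunk. It was also negative for Rgs5 (-0.64 ± 0.18, adjusted p = 0.046), at -0.52 caudal and 0.12 trunk, where the caudal value passed. Foxc1 (-0.46 ± 0.11, limma adjusted p = 0.024) was -0.10 caudal and 0.37 trunk and Sox7 (-0.37 ± 0.10, adjusted p = 0.040) -0.04 and 0.33, where the trunk values passed. Among 29 alternative settings, Ets2, Cgnl1 and Mef2c passed in all, Foxc1 in 24, Pgf in 17, Rgs5 in 16, Sox7 in 15, Cldn5 in 13, Egfl7 in 11 and Apln in 10.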

How the results depend on the processing

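No value that passed for the 10 genes or for the named genes of the lists changed sign under an alternative. Members called higher in the trunk numbered 3 instead of 5 with the sum of listed reads as total, with voom, with only the compared groups and without the 3 libraries holding Xist and Ddx3y. Members with a called interaction numbered 0 with no filter, after rescaling to TPM, with array weights and without those 3 libraries, and 1 with the sum of listed reads, quantile normalization and voom. With no filter the interaction called 571 genes instead of 1163, and without the 3 libraries WT regions differed in 1912 genes instead of 3103. Leaving out 1 library in turn gave 8 to 9 members higher in the caudal region, 3 to 5 in the trunk, 5 to 7 lower in the WT trunk, 10 in the Ednrb-/- trunk, 0 to 2 interactions and 585 to 1488 interaction genes; the cause was not tested. Voom on whole reads called 7060 genes in the caudal and 4693 in the trunk genotype comparison. Differences that never passed took either sign for Pecam1 in both regions, for Cldn5, Tek and Tie1 in the trunk, for Egfl7 between WT regions and for the Plvap interaction. Same-numbered libraries did not deviate together (r from -0.08 to 0.11). A low r cannot decide whether they came from the same embryos. With the replicate number as a block, 9 members were called in the caudal region, Tie1 joining (limma adjusted p = 0.040), and no other member's call changed. Depth did not leave any of the 10 genes under 563 reads in a library.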
